A study of Mus musculus with 4 samples.

Results

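The genes described here encode 9 receptor tyrosine kinases for growth factors: the FGF receptors Fgfr1, Fgfr2, Fgfr3 and Fgfr4, the insulin-like receptors Igf1r and Insr, and the ErbB receptors Egfr, Erbb2 and Erbb3. They were taken by gene symbol from the array's annotation, which gave 31 of 45037 probe sets and 9 of 18193 genes. RNA of 4 mouse cultures was hybridised to Affymetrix arrays, 1 array for each culture. The cultures were embryonic stem (ES) cells of the R1 line, multipotent germline stem (mGS) cells, which resemble ES cells and arise in cultures of germline stem cells, germline stem (GS) cells from Trp53 knockout mice with the strain name ICR in the title, and GS cells with no genotype stated. The ES and mGS cells grew in a standard ES cell medium, and both GS cultures in a modified medium based on StemPro-34, so medium and cell type cannot be told apart. With 1 array a culture there is no replicate error, no p-value is given, and each culture may stand for no more than itself.

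FGF and ErbB receptors pair up when a ligand binds, while the insulin-like receptors are linked pairs already before it binds. The activated receptors are phosphorylated on tyrosines inside the cell and pass the signal to the Ras-ERK and PI3K-Akt pathways. In spermatogonial stem cell culture, GDNF and FGF2 are known to support self-renewal, and EGF is commonly added to the medium. In mouse ES cells, FGF4 made by the cells themselves acts through FGF receptors and ERK to favour leaving the naive pluripotent state. Insulin and the insulin-like growth factors act mainly through PI3K and Akt, which support survival and growth.

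Values are signals after quantile normalization of the 4 arrays. The array median, a signal of 82.7, served as a floor: lower values were raised to it, a difference against a raised value is given as at least N-fold, and a gene under the floor on both arrays was not compared. A gene took the probe set with the highest mean, called the leading probe set below. For 4082 genes with several probe sets above the floor on all 4 arrays, the differences from separate probe sets of a gene were compared. Their standard deviation on the log2 scale was 0.49 for mGS against GS, 0.43 for ES against mGS and 0.49 for knockout against GS. This scatter between probe sets lies within the same arrays and holds no variation between arrays or cultures. It is therefore not the precision of a difference between cultures, which 1 array each cannot give. Of the 31 probe sets, 12 were above the floor on all arrays, 20 on at least 1, and 11 on none.

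Marker genes were set against the labels. The 12 pluripotency markers were all above the floor on the ES and mGS arrays, against 10 on the knockout and 8 on the GS array, where Nanog, Esrrb, Tdgf1 and Gdf3 were under it. Tdgf1 and Nanog were under it on both. Of 10 germline stem markers measured, 8 were above the floor on ES, 8 on mGS, 10 on the knockout and 10 on GS, so detection alone separated the cultures little. Their summed signals were 3695 on ES and 6601 on mGS, against 77569.3 on the knockout and 75117.7 on GS, and all 10 were at least 2-fold lower on mGS than on GS. Fibroblast markers, 23 measured, summed to a signal of 98329.5 on the ES array, 24543.5 on the mGS array, 9642 on the knockout array and 5666 on the GS array. Of 10 Sertoli and 8 leukocyte markers, 7 and 3 were above the floor on the ES array, 5 and 1 on mGS, 2 and 3 on the knockout and 4 and 2 on GS. The summed signals ordered ES and mGS the other way. Sertoli markers summed to 5631 on ES, 10125.2 on mGS, of which Rhox5 made 7866, 651 on the knockout and 796 on GS. Leukocyte markers summed to 498, 1195, 501 and 508 in that order. Added control RNAs also separated the arrays. As deposited, the dap probe sets had medians of 2489 on the ES and 2982 on the knockout array. On the mGS and GS arrays these medians were 252 and 275. The lys, phe and thr controls split the arrays alike. For thr the medians were 482 on ES and 578 on the knockout, against 28.7 on mGS and 25.2 on GS. ES against mGS and knockout against GS thus cross this split, while mGS against GS does not. The bioC hybridisation control read 509 on the knockout array against 2653 on the GS array. The knockout label was not checked at its gene, since Trp53 was not analysed here.

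**Figure D1:**
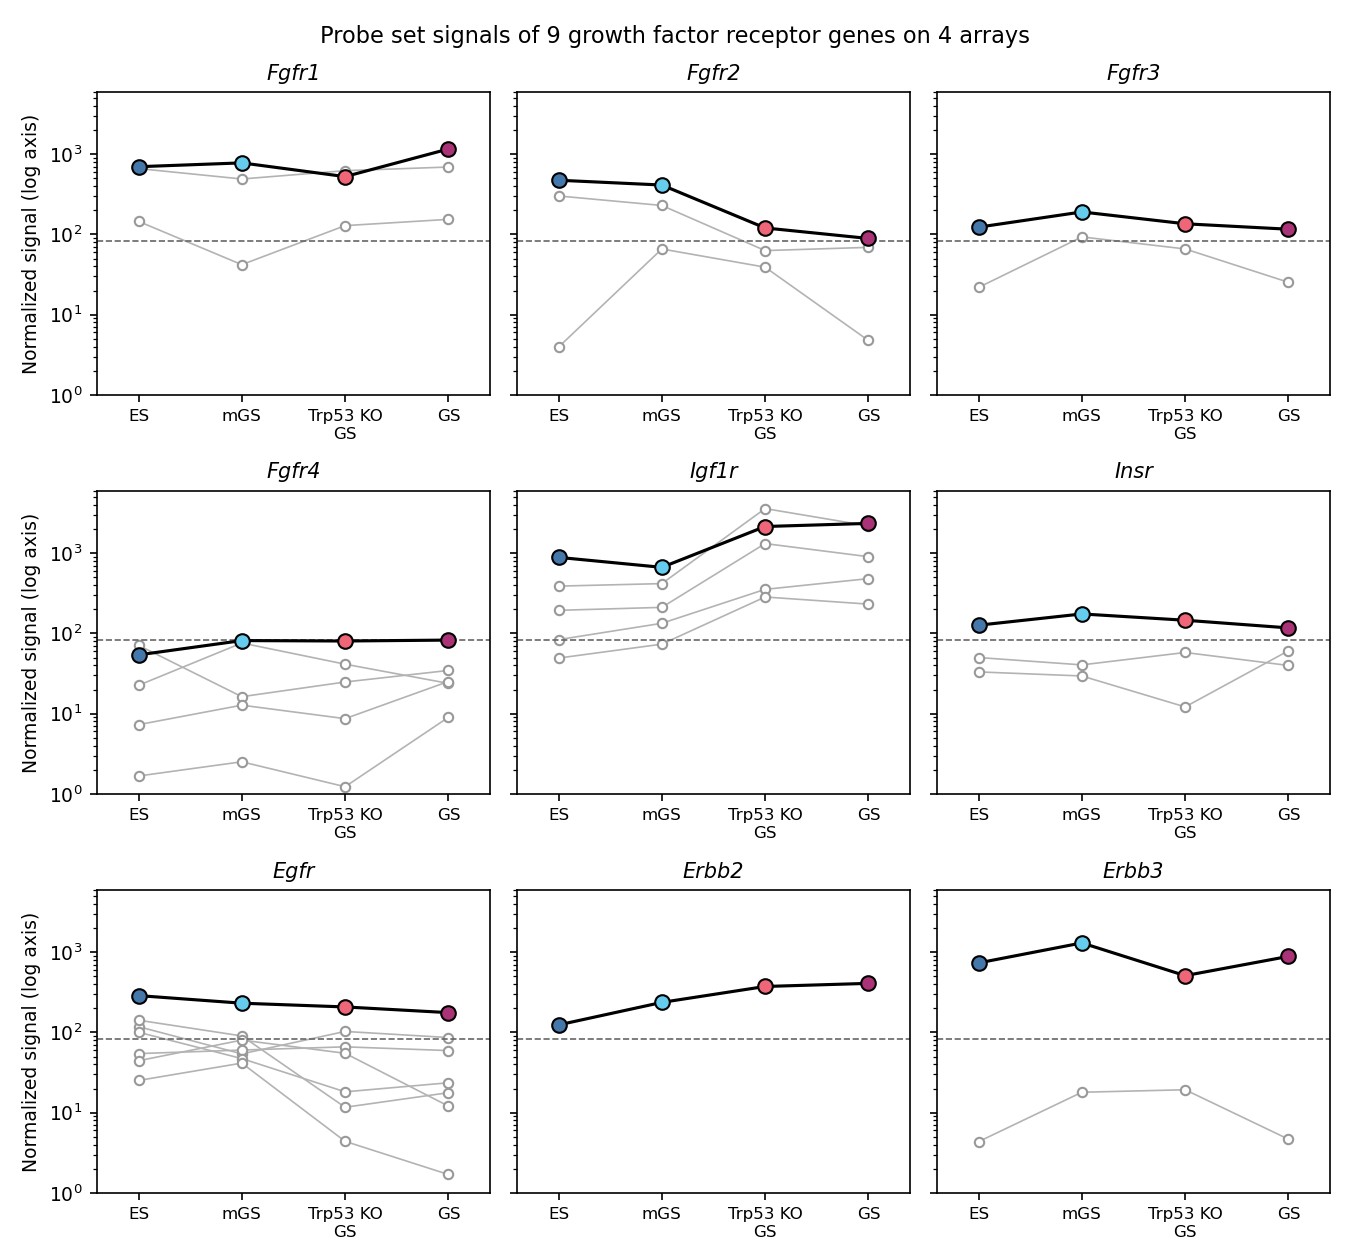
Normalized signal (log axis) of every probe set of the 9 receptor genes on the ES, mGS, Trp53 knockout GS and GS arrays. Filled points and the black line are the leading probe set, open points and grey lines the others, lines only join values of 1 probe set, and the dashed line is the floor of 82.7. All 5 Igf1r probe sets sit lower on the ES and mGS arrays, and the 2 upper Fgfr2 probe sets sit higher there.

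Among the receptors, Igf1r was lower and Fgfr2 higher by at least 2-fold on both arrays of the ES cell medium than on both GS arrays. Erbb2 and the leading Egfr probe set, described below, did not overlap between the media either, with closest pairs 1.58-fold and 1.11-fold apart. The share of all genes without overlap was not counted, so lack of overlap alone sets no member apart. Igf1r encodes the receptor that binds IGF1 and IGF2. Its leading probe set read 891 on ES and 669 on mGS, against 2163 on the knockout array and 2366 on the GS array. The groups did not overlap, and the 4 differences between an array of one medium and an array of the other were 2.43-fold to 3.54-fold. Fgfr2 encodes a receptor for several FGFs and is known in the blastocyst as a gene of the primitive endoderm. It read 475 on ES and 414 on mGS, against 121 on the knockout array and 89.2 on the GS array, which lies just above the floor. Here too the groups did not overlap, with differences of 3.43-fold to 5.33-fold. The summed fibroblast markers had the same order over the arrays as Fgfr2, ES, mGS, knockout and GS from high to low. Their median signal did not, at 2015, 241, 287 and 133 on those arrays in turn. Their part in the Fgfr2 signal was not tested. These were the receptors at least 2-fold apart in all 4 cross pairs, 1 higher and 1 lower of 9, where 7.65% of 12897 genes were higher and 8.38% lower by that rule, so a count of 1 each way is near the background. In bulk RNA, fewer cells of a type and less RNA per cell cannot be told apart.

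The separate probe sets bear on these differences. The leading Fgfr2 probe set is of a kind that can match several transcripts, and without such probe sets Fgfr2 was at least 2.79-fold higher on mGS than on GS, against 4.64-fold with it. The other 4 Igf1r probe sets gave the same direction in every cross pair, and all 5 differed at least 2-fold in every one. The widest read 390 and 419 on the ES and mGS arrays, against 3621 and 2200 on the knockout and GS arrays. Over the 5, the log2 differences ranged from -3.21 to -1.28, so the size depends on the probe set while the direction does not. A second Fgfr2 probe set read 303 and 230 on the ES and mGS arrays, against 63.0 and 69.1 on the knockout and GS arrays, both under the floor. The last Fgfr2 probe set was under the floor everywhere and showed no usable order, at 3.94 on ES, 66 on mGS, 39.1 on the knockout and 4.76 on GS. When the log2 values of all 3 Fgfr2 probe sets were averaged, that dim one included, the smallest cross-pair log2 difference was 0.0011 and the Fgfr2 call ended.

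Both genes lie on chromosome 7 of assembly GRCm38.p6, Igf1r from 67952257 to 68233668 and Fgfr2 from 130162451 to 130266808. The 250 bases before the RefSeq start of each are shown because these members went in opposite directions; they run 5′ to 3′ along the gene and capitals mark each CG. Igf1r lies on the plus strand (chr7:67952007-67952256) and Fgfr2 on the minus strand (chr7:130266809-130267058).
Igf1r: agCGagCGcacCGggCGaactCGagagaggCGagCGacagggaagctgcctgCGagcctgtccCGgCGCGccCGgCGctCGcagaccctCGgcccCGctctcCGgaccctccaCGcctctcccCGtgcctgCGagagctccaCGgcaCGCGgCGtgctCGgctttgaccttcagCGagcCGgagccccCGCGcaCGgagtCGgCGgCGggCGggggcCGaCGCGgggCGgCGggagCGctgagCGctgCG
Fgfr2: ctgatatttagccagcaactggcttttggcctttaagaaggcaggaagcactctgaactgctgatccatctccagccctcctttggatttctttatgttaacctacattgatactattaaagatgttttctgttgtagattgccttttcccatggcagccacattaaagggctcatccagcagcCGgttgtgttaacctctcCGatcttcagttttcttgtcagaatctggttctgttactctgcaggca
The Igf1r stretch holds 42 CG and is 77.6% G or C, and 99.1% of 32851 RefSeq promoters of that length hold fewer CG. The Fgfr2 stretch holds 2 CG and is 44.0% G or C, and 18.8% hold fewer. Over all promoters the median was 6 CG and 52.4% G or C. Erbb2, also lower on the arrays of the ES medium, has 16 CG in its stretch. Members without a call in the cross pairs have 11 for Egfr, 15 for Fgfr4, and 19 and 24 for the Fgfr3 starts. No stretch was available for Fgfr1, Insr and Erbb3. A link of CG content to direction was not tested. The GC box, GGGCGG on either strand, occurs 2 times before Igf1r and not before Fgfr2, and 32.7% of all promoters hold at least 1. It is also absent before Erbb2, and present before Egfr, Fgfr3 and Fgfr4. Which start site the cultures used was not measured, and letters in a window are a description only.

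Erbb2, the ErbB member with no known ligand of its own that partners the others, followed a graded order. It read 124 on the ES array, 237 on the mGS array, 375 on the knockout array and 410 on the GS array. Both arrays of the ES medium were thus below both GS arrays, by 1.58-fold at the least and, for ES against GS, 3.30-fold. The steps between neighbours in that order, ES with mGS at 1.91-fold and mGS with knockout at 1.58-fold, were under 2-fold, and knockout and GS were 1.09-fold apart. Erbb2 had 1 probe set, so no other could check it. Its order is the reverse of that of the summed fibroblast markers, though not of their median, and their part was not tested. Erbb3 encodes a neuregulin receptor with an impaired kinase that signals through its partners. It read 738 on the ES array, 1312 on the mGS array, 512 on the knockout array and 891 on the GS array, so the media overlapped. The widest gap, 2.56-fold, was between mGS and the knockout.

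Egfr encodes the receptor of EGF, TGF-alpha and HB-EGF. Its leading probe set read 289 on the ES array, 232 on the mGS array, 208 on the knockout array and 177 on the GS array. Those values span 1.63-fold, and each neighbouring pair in that order differs by less than the scatter between probe sets. Egfr had 7 probe sets, of which 4 were above the floor on any array, and these did not share an order. One read 142 and 90.6 on the ES and mGS arrays and under the floor at 11.7 and 17.7 on the knockout and GS arrays. Another read 118 on the ES array and 54.1, under the floor, on the mGS array, against 103 on the knockout and 86.5 on the GS array. The summed fibroblast markers above were also highest on the ES array and lowest on the GS array; their part in the Egfr signal was not tested.

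Fgfr1, a main receptor of FGF2 and FGF4, was well above the floor in all cultures. Its leading probe set read 701 on the ES array, 783 on the mGS array, 527 on the knockout array and 1166 on the GS array. For this probe set the arrays of the ES medium lay between both GS arrays. On the 2 others mGS was lowest, with 493 against 626 on the knockout and 695 on GS for one, and 42.0 against 129 and 154 for the other. Fgfr3 read 123, 191, 136 and 116 on the ES, mGS, knockout and GS arrays, and Insr, the insulin receptor, read 127, 175, 146 and 117. Both were near the floor throughout, spanned 1.64-fold and 1.49-fold, and were highest on the mGS array. Insr rests on 1 of its 3 probe sets, the others being under the floor on every array. Differences of mGS from GS and from ES exceeded the scatter between probe sets for both, without reaching 2-fold. For Insr the margin was small, -0.47 for ES over mGS against a scatter of 0.43. That scatter came from probe sets above the floor on all arrays, so it may be too small here. With the floor at the 60th percentile the log2 differences of mGS over GS fell to 0.31 for Fgfr3 and 0.19 for Insr. No further order is read. Fgfr4 stayed at or under the floor. The brightest of its 5 probe sets read 54.1, 81.6, 80.6 and 82.7 on the ES, mGS, knockout and GS arrays. Its differences from GS, -0.0012 for both mGS and the knockout, rest on raised values and show no direction.

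The comparison of mGS with GS was made by the study to look for molecules that take part in the change of GS into mGS cells. On the mGS array Fgfr2 was 4.64-fold higher than on the GS array and Igf1r 3.54-fold lower, with log2 differences of 2.22 and -1.82. The remaining 7 members were within 2-fold. Erbb2 and Fgfr1 had log2 differences of -0.79 and -0.58, and Fgfr3, Insr, Erbb3 and Egfr differences of 0.72, 0.58, 0.56 and 0.39. Thus 1 of 9 members was at least 2-fold higher and 1 lower, where 15.3% of 11981 genes were higher and 16.5% lower, so 1 member each way is near that background. The median of the members was 0.39, against -0.04 for all genes. Every one of the 5 Igf1r probe sets was lower there by 2-fold or more, with log2 differences starting at -2.39; the smallest, -1.49, is a bound, since its mGS value was under the floor. Fgfr2 was higher by 2-fold or more on both probe sets compared, with a difference of 2.22 for the leading one and of at least 1.48 for the other. All 3 Fgfr1 probe sets were lower on the mGS array, the leading one by 1.49-fold, another by 1.41-fold and the last, under the floor on mGS, by at least 1.87-fold.

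Between ES and mGS, no member of the 8 compared reached 2-fold, while 6.90% of 11816 genes were higher and 5.13% lower on the ES array. The median of the members was -0.31, against 0.0031 for all genes. Erbb2 came nearest with a log2 difference of -0.93, followed by Erbb3 with -0.83 and Fgfr3 with -0.63. Insr had one of -0.47, Igf1r 0.41, Egfr 0.31, Fgfr2 0.20 and Fgfr1 -0.16. The leading Igf1r probe set was higher on the ES array while 3 others were lower, so averaging gave -0.21, and 1 Fgfr1 probe set was lower while the 2 others were higher. Averaging the probe sets gave Fgfr2 a log2 difference of -1.16 here, with the dim probe set included. The ES and mGS arrays also lay apart in the dap, lys, phe and thr controls, whose part in these differences was not tested.

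This comparison and that of mGS with GS share the GS array, and those of mGS share the mGS array, so their values are only set side by side. Against GS, 1 member of 9 was at least 2-fold lower on the Trp53 knockout array and none was higher, where 6.93% of 11623 genes were lower and 9.77% higher. That member was Fgfr1, 2.21-fold lower with a log2 difference of -1.14. The call rests on 1 probe set of a kind that can match several transcripts. The 2 other Fgfr1 probe sets had differences of -0.15 and -0.26, reading 626 and 129 on the knockout array against 695 and 154 on the GS array. Without probe sets of that kind the Fgfr1 difference was -0.15 and the call ended. Erbb3 had a difference of -0.80, which turned to 0.27 when its probe sets were averaged, 1 of them under the floor on every array. Fgfr2 had one of 0.44. The remaining members compared above the floor lay between -0.13, for Igf1r and Erbb2, and 0.32, for Insr. The 5 Igf1r probe sets went both ways, from -0.44 to 0.72. The median of the members was -0.0012, which is the value of Fgfr4 at the floor, against 0.07 for all genes. The knockout and GS arrays also lay apart in the dap, lys, phe, thr and bioC controls given above. The part of these controls in the differences was not tested.

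**Figure D2:**
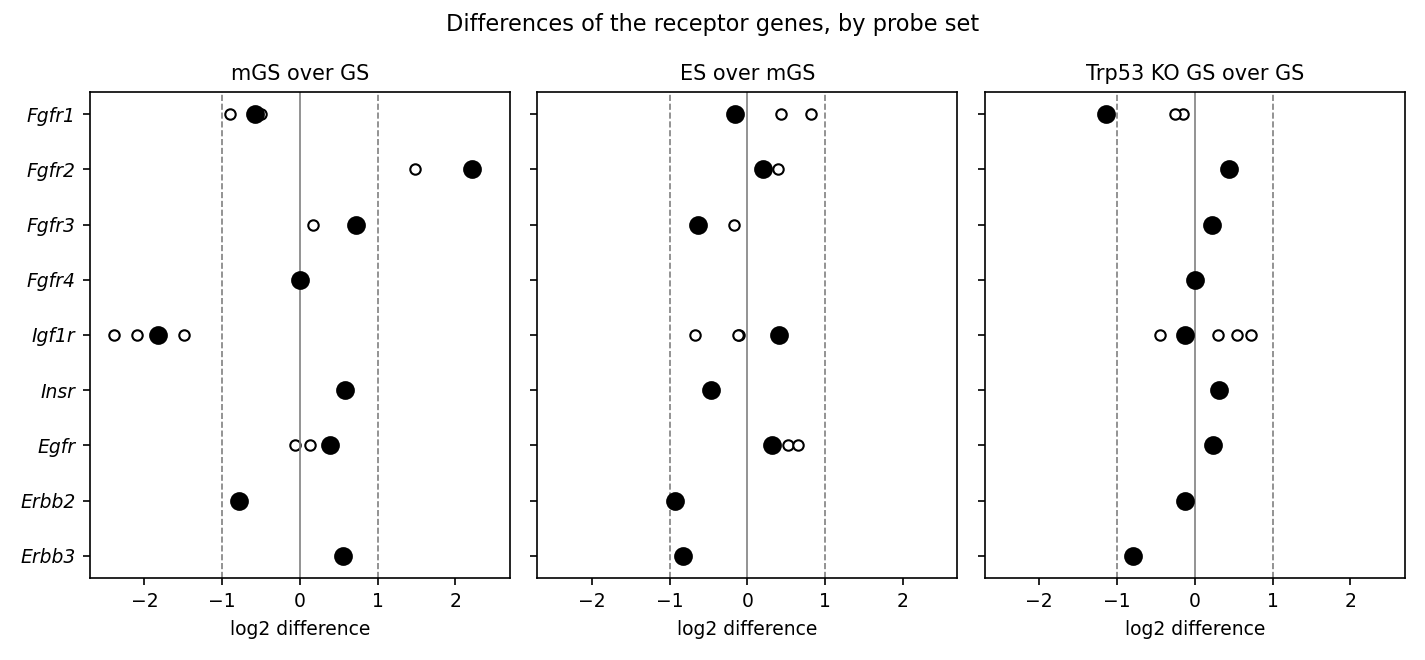
Log2 differences (x axis) of the receptor genes for mGS over GS, ES over mGS and Trp53 knockout GS over GS. Filled points are leading probe sets, open points other probe sets above the floor on at least 1 of the 2 arrays, and dashed lines mark 2-fold. Fgfr2 and Igf1r lie outside the dashed lines for mGS over GS, no gene for ES over mGS, and 1 Fgfr1 probe set for the knockout over GS.

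With 4 arrays, many genes share a pattern by arithmetic alone, so likeness is descriptive. Likeness was the root mean square difference between gene-centred log2 values over the 4 arrays, among 12888 other genes. Nearest to Igf1r were Zswim6, Atat1 and Rftn1, at 0.03, 0.04 and 0.05, and 162 genes lay within 0.2. Nearest to Fgfr2 were Prkaa1, Arl2 and Tmbim1, at 0.03, 0.04 and 0.05, of 58 within 0.2. For Erbb2 they were Rab3gap1, Usp11 and Dhtkd1, at 0.05, 0.06 and 0.07, of 95. For Erbb3 they were Morc4, Rreb1 and Atp11b, at 0.06, 0.06 and 0.07, of 123. For Fgfr1 they were Anln, Arhgap19 and Gnaq, at 0.04, 0.05 and 0.05, of 171.

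The pathway lists that follow can be read against all genes. Of these, 15.3% were higher and 16.5% lower on mGS than on GS, and 6.90% and 5.13% on ES than on mGS. On the knockout 9.77% were higher and 6.93% lower than on GS. In all cross pairs 7.65% were higher and 8.38% lower on the arrays of the ES medium. Fibroblast markers at least 2-fold apart were 8 of 17 higher and 3 lower on mGS than on GS, 21 of 22 higher and none lower on ES than on mGS, and 7 of 17 higher and none lower on the knockout than on GS. Their part in the counts of the lists was not tested. Among the FGFs, Fgf4 read 625 on ES and 431 on mGS, against 54.6, under the floor, on the knockout and 111 on the GS array, and was 3.90-fold higher on mGS than on GS. Of 21 genes for FGFs and FGF binding proteins, 9 could be compared between mGS and GS, with 5 at least 2-fold higher and 1 lower. The largest besides Fgf4 were Fgfbp1, a secreted carrier of FGFs, at least 18.6-fold, and Fgf17, at least 4.48-fold higher. On ES against mGS 2 of 12 were higher, Fgf7 by at least 4.45-fold and Fgf5, known from the primed epiblast, by 3.35-fold, and 2 were lower, among them Fgfbp1 by 3.96-fold. Against GS, 1 of 4 was higher on the knockout array, Fgf13 by 2.25-fold, and 1 lower, Fgf9 by at least 3.75-fold. Fgf2 was under the floor on every array. Fgf7 is a ligand typical of mesenchymal cells and was above the floor on the ES array, where the fibroblast markers were highest; their part was not tested.

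The ligand Igf2 and the IGF binding proteins, which hold IGFs in the medium and modulate their action, were uneven. Igf2 read 1388 on the ES array, 252 on the mGS array, 436 on the knockout array and 3511 on the GS array. It was thus 13.9-fold lower on mGS than on GS, 8.04-fold lower on the knockout than on GS, and 5.51-fold higher on ES than on mGS. Of 7 genes of the list compared, 2 were higher and 3 lower on mGS than on GS, with Igfbp6 6.06-fold and Igfbp5 at least 4.95-fold lower. Compared with mGS, 4 of 7 were higher and none lower on ES, among them Igfbp7, 12.1-fold, and Igfbp6, 3.63-fold, beside 21 of 22 fibroblast markers that were also higher there. In the knockout, 3 of 7 were higher than on GS, with Igfbp7 at least 3.41-fold and Igfbp6 3.24-fold, and 1, Igf2, was lower. In the cross pairs Igfbp2 and Igfbp3 were higher on the arrays of the ES medium, by 2.10-fold and 2.05-fold in the closest pairs. Igfbp5 was lower there, by 2.97-fold in its closest pair. Igf1 was under the floor on every array.

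Among the ErbB ligands, Hbegf, the gene of HB-EGF, read 1701 on ES and 988 on mGS, against 197 on the knockout and 392 on the GS array. It was 2.52-fold higher on mGS than on GS, the single gene of 5 compared to reach 2-fold, and no gene was lower. Ereg was at least 7.62-fold higher on ES than on mGS, 1 of 6, and none was lower. The knockout array had 2 of 6 higher than GS and none lower, Nrg4 by at least 3.30-fold and Egf by at least 2.06-fold. Egf read 37.7, 90.9, 170 and 52.2 on the ES, mGS, knockout and GS arrays, near or under the floor on ES, mGS and GS, so mGS against GS gives only a bound, at least 1.10-fold higher. Nrg1, the gene of a ligand of Erbb3, and Erbb4, the remaining ErbB receptor, were under the floor on every array.

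**Figure D3:**
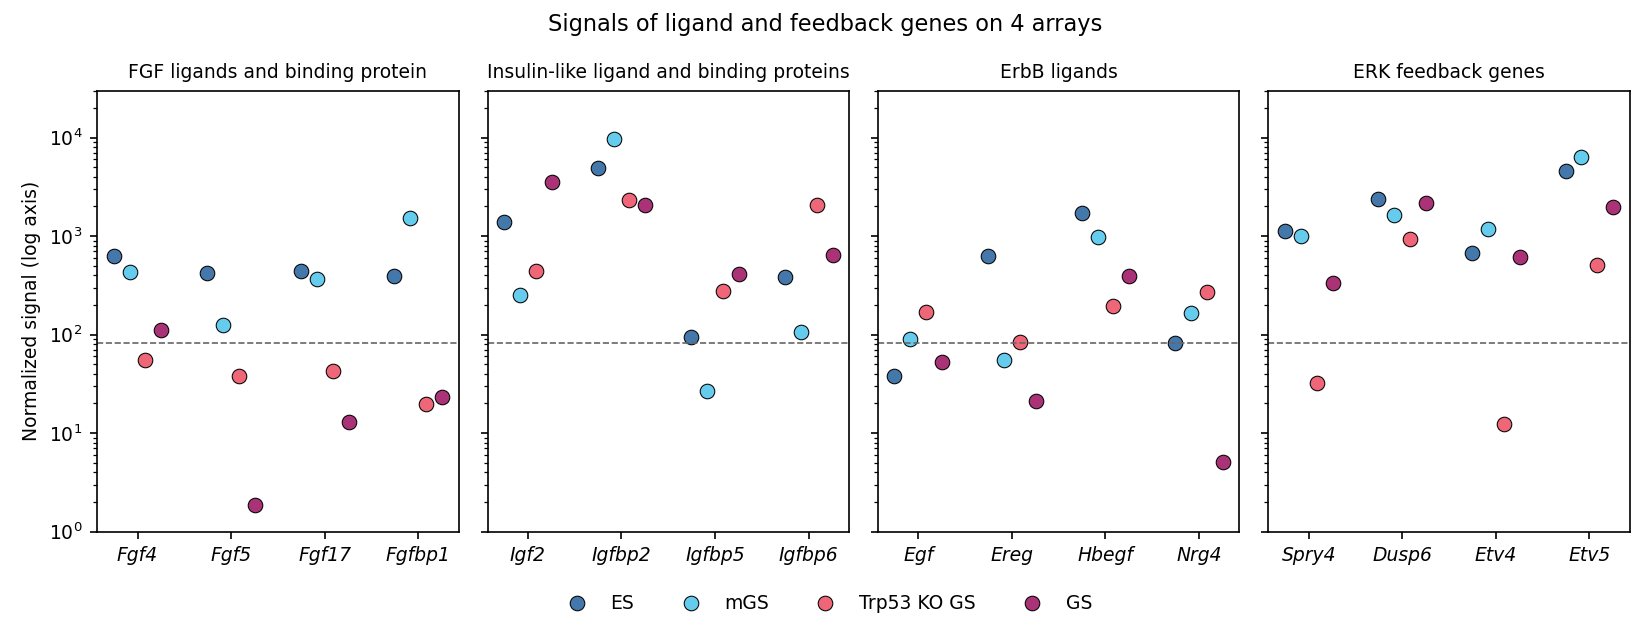
Normalized signal (log axis) of ligand, binding protein and ERK feedback genes on the ES, mGS, Trp53 knockout GS and GS arrays, 1 point an array, with the floor of 82.7 dashed. Fgf4, Fgf17, Fgfbp1 and Hbegf sit higher on the ES and mGS arrays than on both GS arrays, and Igf2 is highest on the GS array at 3511.

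**Figure D4:**
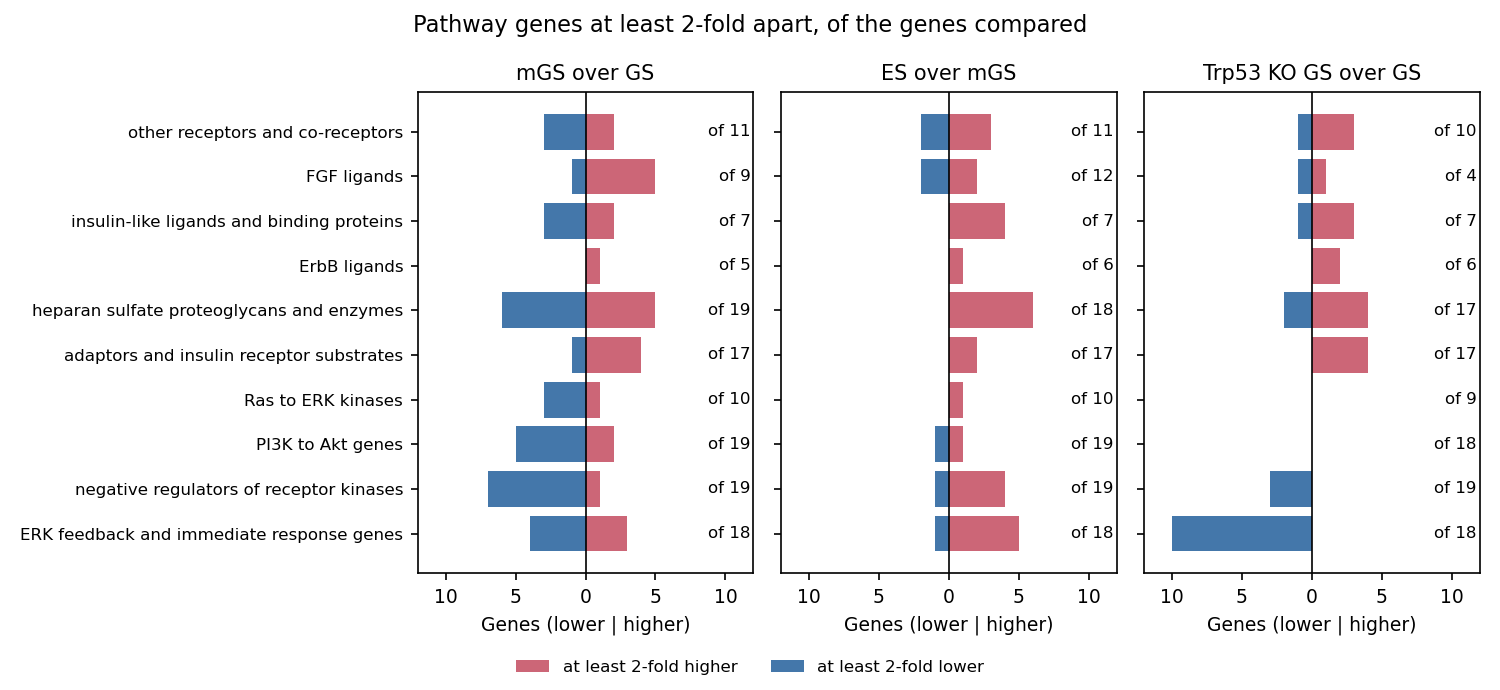
Number of genes of each pathway list at least 2-fold higher (right, red) or lower (left, blue) on the first array named, with the number compared at the right edge. The longest bar is that of the ERK feedback list for the knockout over GS, 10 of 18 genes lower and 0 higher, where 6.93% of all genes were lower and 9.77% higher. Part of that list was already known from these arrays to be lower there, so its length is no independent evidence.

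Other receptors and co-receptors, a list that also holds receptors of other families such as Kit and Ret, went both ways. Of 11 compared between mGS and GS, 2 were higher, Kit by at least 8.47-fold, and 3 lower, Ret by at least 25.1-fold and Pdgfra by at least 4.70-fold. Between ES and mGS 3 of 11 were higher, Flrt2 by 12.6-fold, Pdgfrb by at least 7.87-fold and Pdgfra by at least 4.55-fold, and 2 lower. Pdgfra and Pdgfrb are also fibroblast markers, and 21 of 22 such markers compared were at least 2-fold higher on ES; their part was not tested. On the knockout array 3 of 10 were higher than on GS, Kit by at least 4.36-fold and Ntrk2 by at least 2.75-fold, and 1, Ret, was 2.83-fold lower.

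Heparan sulfate proteoglycans bind FGFs and present them to their receptors. Of 19 such genes and their enzymes, 5 were higher and 6 lower on mGS than on GS. The proteoglycan Gpc3 was at least 7.91-fold higher, Sdc4 10.7-fold lower and the sulfotransferase Ndst2 at least 8.58-fold lower. Sdc4 read 1042 and 904 on the ES and mGS arrays, against 28064.5 and 9708 on the knockout and GS arrays. On ES against mGS 6 of 18 were higher and none lower, among them Sdc3 by 3.64-fold, Hs6st2 by 3.19-fold and Sdc2 by 3.12-fold. Here too 21 of 22 fibroblast markers were higher on ES. The knockout array had 4 of 17 higher than GS, Sulf1 by 3.24-fold and Sdc4 by 2.89-fold, and 2 lower, Sdc1 by 3.70-fold.

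Of 17 adaptors and insulin receptor substrates, which carry the signal from the receptor, 4 were higher and 1 lower on mGS than on GS. Grb10, an inhibitor of the insulin-like receptors, was 9.33-fold and the docking protein gene Gab1 6.32-fold higher, and the Ras activator gene Sos2 2.95-fold lower. Grb10 read 4841 on the ES array, 1016 on the mGS array, 559.8 on the knockout array and 109 on the GS array. Grb10 was 4.77-fold and Grb14 2.56-fold higher on ES than on mGS, 2 of 17, and none was lower. On the knockout array 4 of 17 were higher than on GS and none lower, Grb10 by 5.14-fold, Irs4 by 3.88-fold and Gab2 by 3.27-fold. In all cross pairs 3 of 18 were at least 2-fold higher on the arrays of the ES medium and 0 lower, where 7.65% of all genes were higher and 8.38% lower. The closest pairs were 3.74-fold apart for Gab1, 2.19-fold for Irs1 and 2.09-fold for Grb7.

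Of 10 genes of the Ras to ERK list measured here, 1 was higher and 3 lower on mGS than on GS. The Ras-like gene Eras, known from ES cells, was at least 73.6-fold higher, the kinase gene Rps6ka3 4.95-fold lower, and the Ras inhibitor gene Nf1 at least 3.63-fold lower. Nf1 was also the single gene of the list at 2-fold between ES and mGS, at least 2.02-fold higher on ES. Against GS, none of 9 differed by 2-fold on the knockout array. Of 19 PI3K to Akt genes, 2 were higher and 5 lower on mGS than on GS. Inpp5d, the gene of a phosphatase that acts on the product of PI3K, was at least 28.4-fold higher, and Pik3r3, a regulatory subunit of PI3K, 7.64-fold lower. Inppl1, a relative of Inpp5d, was 3.62-fold lower. Between ES and mGS these phosphatase genes were the 2 that differed, Inpp5d 7.10-fold lower and Inppl1 5.71-fold higher on ES. On the knockout array none of 18 differed from GS by 2-fold, and the list's median log2 difference was 0.37, against 0.07 for all genes.

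Of 19 negative regulators of receptor kinases, 1 was higher and 7 lower on mGS than on GS, with a median of -0.56 against -0.04 for all genes. Socs2 was 12.6-fold higher, Socs5 6.35-fold lower and Lrig1, which promotes loss of ErbB receptors, 5.97-fold lower. In the cross pairs Lrig1 and Lrig2 were lower on the arrays of the ES medium, by 4.10-fold and 3.22-fold in the closest pairs. On ES against mGS 4 of 19 were higher, Sh3kbp1 by 6.78-fold, Socs4 by 4.0-fold and Socs5 by 2.57-fold, and 1 lower. On the knockout array 3 of 19 were lower than on GS and none higher, Socs3 by 4.34-fold, Errfi1, an inhibitor of Egfr, by 3.65-fold and Ptprf by 2.29-fold.

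Genes that answer to ERK signalling include its feedback inhibitors of the Sprouty and Dusp families. Of 18 compared, 10 were at least 2-fold lower on the knockout array than on the GS array and none was higher, where 6.93% of all genes were lower and 9.77% higher. The list's median log2 difference was -1.24, against 0.07 for all genes. Dusp4 was at least 8.24-fold, Ccnd1 7.95-fold, Etv4 at least 7.48-fold, Spry4 at least 3.99-fold, Etv5 3.85-fold and Dusp6 2.31-fold lower. The early response genes Egr1 and Fos had differences of -0.05 and 0.66. Part of this list was already known to be lower there from earlier work on these arrays, so the count is no independent evidence. On the mGS array 3 of 18 were higher than on GS, among them Etv5 by 3.25-fold and Spry4 by 3.0-fold, and 4 lower, Dusp5 by 7.0-fold and Dusp7 by 3.50-fold. Dusp6 and Etv4 had differences of -0.42 and 0.93. Between ES and mGS 5 of 18 were higher, Fosl1 by at least 7.04-fold and Ccnd1 by 2.93-fold, and 1, Egr1, was 3.25-fold lower.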

How the data were processed

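Total RNA was extracted with Trizol and turned into biotin-labelled cRNA by the standard Affymetrix procedure, per the labels' protocols. The values the authors deposited are linear intensities, 1 for each probe set on each array, whose 2% trimmed mean is 500 throughout. What software summarised the probes is not stated in the sources used here. Of 45101 probe sets, 64 controls were set aside. Quantile normalization was applied to log2 values of the 4 arrays together, which hides changes in total RNA. Of the 45037 probe sets used, 34945 had 1 gene symbol on the platform's annotation, 932 had several and were left out, and 9160 were not listed. By identifier, 34741 matched the gene table of GRCm38.p6, the source of names, coordinates and RefSeq promoters. The floor, the fold of 2, the leading probe set and the lists are given in the report. All 9 receptors were named, with the 3 largest differences per list and comparison among genes at 2-fold or more, a few preset genes, and the 3 nearest patterns. Members and lists were chosen with earlier results of these data known. Some genes of the lists were not analysed here. No test was possible with 1 array a group; steps were tested on simulated data. Tables were computed in Python 3.11.15 with pandas 2.3.3 and numpy 2.4.6, and figures drawn with matplotlib 3.10.9.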

Additional observations from a re-analysis of the deposited data

How the results depend on the processing

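Under the 9 alternatives, the members at 2-fold or more kept their sign. Some members within 2-fold did not. When probe sets were averaged, the log2 difference of ES over mGS was -1.16 for Fgfr2 (0.20 otherwise), 0.69 for Fgfr1 (-0.16) and -0.21 for Igf1r (0.41), and that of the knockout over GS was 0.27 for Erbb3 (-0.80) and 0.20 for Igf1r (-0.13). Without cross-hybridising probe sets Fgfr1 had 0.43 for ES over mGS, and with values as deposited Fgfr4 had 0.20 for the knockout over GS. When the probe sets of a gene were averaged, 1 member, Fgfr2, became lower on ES than on mGS (0 otherwise), no member stayed lower on the knockout than on GS (0 against 1), and none stayed higher in all cross pairs (0 against 1). Without probe sets prone to cross-hybridisation, no member was lower on the knockout than on GS (0 against 1). The remaining counts of members were unchanged under all alternatives. Of the recomputed differences of members, 283 stayed within the scatter between probe sets and 12 moved beyond it, 5 up and 7 down. The 283 include cross-pair values set to 0 in every setting because the signs of the pairs differed. They also include the setting that kept probe sets with several symbols, which changed no member. For mGS over GS, Fgfr2 had a log2 difference of 1.16 with the mean of probe sets, 1.48 without cross-hybridising probe sets and 1.43 with the floor at the 60th percentile. Of 1620 recomputed list values, 178 moved, 99 up and 79 down, most without a floor (44) and with the mean of probe sets (39). Centring each array on its median moved the all-gene median by -0.16 for the knockout over GS and -0.11 for ES over mGS, and of the calls 43.9% and 48.8% were then higher, against 58.5% and 57.4%. Without the floor, 3999 genes were higher and 4021 lower on mGS than on GS, against 1838 and 1976, 2747 and 2574 on ES than on mGS, against 815 and 606, 3166 and 2597 on the knockout than on GS, against 1135 and 805, and 1544 and 1671 in all cross pairs, against 986 and 1081. With the floor at the 30th percentile, 1397 and 1167 genes were higher and lower on ES than on mGS, and 1759 were higher on the knockout than on GS; with a pseudocount of 32 in its place, 962 were lower on ES than on mGS. Fgfr4 and most Egfr probe sets were too near the floor for an order, and the size of the Fgfr3 and Insr differences depended on the floor. No paired analysis was possible because each group has 1 array.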
